A study of Arabidopsis thaliana with 7 samples.

Results

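The NAC genes form one of the large plant-specific families of transcription factors, named after the founding members NAM, ATAF and CUC, and their proteins bind DNA through a conserved domain near the amino terminus. Different members act in organ boundaries, in wood and vessel formation, in senescence, and in responses to drought, abscisic acid and stress of the endoplasmic reticulum or the mitochondria, and some are held at membranes until a signal releases them. HY5 is a basic leucine zipper transcription factor that accumulates in light, is broken down in darkness and binds elements with an ACGT core. The genes described here are all protein-coding Arabidopsis genes whose symbol is NAC followed by a number alone, 79 of them, with the boundary genes CUC1, CUC2 and CUC3, which makes 82 of 27444 protein-coding genes. A HY5-YFP peak belonged to a gene where its centre lay between 1500 bp outside and 500 bp inside either end of that gene. Since 2 genes carry the symbol NAC2 and another pair the symbol NAC3, these are given with their locus.

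Plants under blue light and plants under red light were compared, with 3 biological replicates per light. Every plant was of the Wassilevskija (Ws) accession, carried the T-DNA mutation hy5-ks50 and expressed the fusion of HY5 with yellow fluorescent protein. After entrainment to light and dark cycles, the plants spent 52 h in blue or in red light at 15 µmol m-2 s-1 and were fixed whole, 10 days old. The mock, 1 sample, came from the pooled blue light plants with beads that lack the antibody, and it served as the control for the peaks of both lights. Plants without the fusion and transcripts were not analysed here, so the values describe chromatin bound by HY5-YFP and not the activity of a gene.

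The values are HY5-YFP tags in a peak, scaled by the authors to 10 M tags of a library and printed here as tags per 10 M. The lists of blue replicates 1, 2 and 3 held 8724, 8524 and 8888 peaks, against 4027, 5672 and 5441 in red replicates 1, 2 and 3, from 7.99 to 11.7 M tags in blue and 10.6 to 11.9 M in red. The share of tags within peaks, which the file headers call the IP efficiency, was 25.4% ± 0.495 in blue and 13.9% ± 1.75 in red (SD, n = 3 each). Red replicate 1 stood apart, with an estimated fragment length of 548 bp against 188 to 226 bp elsewhere, and its tags were counted in windows of 549 bp against 306 to 348 bp. Peaks that shared at least 1 bp were joined into 10233 sites, and all 6 libraries called 3557 of them. A consensus site of a light is one called in at least 2 of its 3 libraries.

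In the lists as deposited, HY5-YFP was called near fewer NAC genes in red than in blue light, as it was over all genes. At least 1 library called a peak at 39 of the 82 NAC genes (47.6%, against 49.5% of all protein-coding genes), and 43 had none. A blue consensus site stood at 32 of them (39.0%, against 43.2% of all genes) and a red one at 25 (30.5%, against 26.3%). All 25 NAC genes with a red consensus site also had a blue one, so that of the 32 called in blue 78.1% were called in red as well, where the share was 60.4% over all genes. The other 7 had a blue and no red consensus site (8.54% of the NAC genes, against 17.1% of all genes), and 0 had a red one alone. These shares are counts without a test. That of the NAC genes with a blue and no red consensus site turns on the peak threshold. It came to 12 genes when peaks had to exceed the mock 8-fold (14.6%, against 13.2% of all genes). When all lists were cut to the length of the shortest, it came to 3 (3.66%, against 2.71%). At both settings the NAC share was no longer the lower one. In lists of that equal length, 23 NAC genes reached a consensus under blue (28.0%) and 24 under red light (29.3%), so the lower number in red was no longer seen. Over all genes the share was 20.8% in each light, so there the NAC share was the higher one in blue as well. Without red replicate 1 or 2, both libraries left had to call a red site. The NAC genes with a blue and no red consensus site then numbered 12 (14.6%, against 18.5% of all genes) and 11 (13.4%, against 23.3%). A red consensus site stood at 20 NAC genes without red replicate 1 (24.4%, against 24.9% of all genes), so the higher NAC share in red was not seen there. It stood at 21 without red replicate 2 (25.6%, against 20.0%) and at 22 without red replicate 3 (26.8%, against 20.2%).

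Library by library, 35, 34 and 34 NAC genes had a peak in blue replicates 1, 2 and 3, against 24, 25 and 25 in red replicates 1, 2 and 3. The blue and red libraries did not overlap, and replicates of a light differed by 1 gene at most. The mean was 34.3 ± 0.577 genes in blue and 24.7 ± 0.577 in red (SD, n = 3 each), a ratio of 1.39, where over all genes the means of 11955 ± 183 and 7245 ± 1083 gave a ratio of 1.65. With 3 libraries a light, an exact two-sided permutation test cannot give a p under 0.1, which is what it gave here. The difference of 9.67 genes between the means fell to 1 gene in lists of equal length (p = 0.7 in the exact permutation test). The share of tags in peaks was lower in red too, and its part in the counts was not tested.

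**Figure D1:**
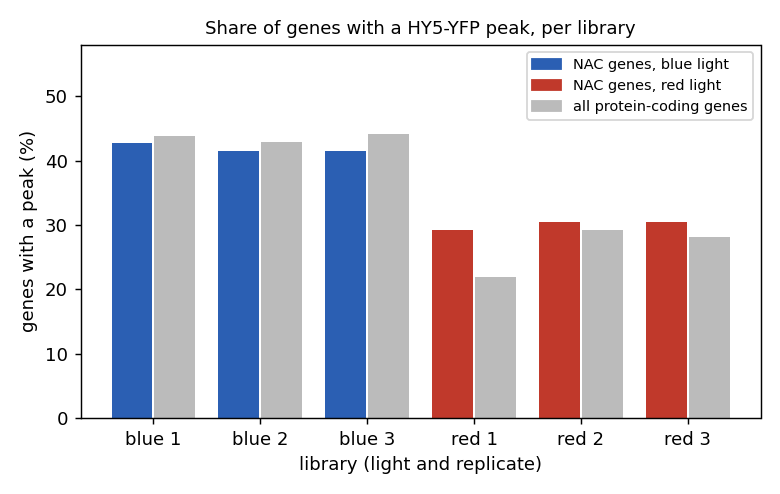
The bars give the percentage of genes with a HY5-YFP peak in each library, for the 82 NAC genes (blue or red bars by light) and for all 27444 protein-coding genes (grey bars). The NAC genes lie between 41.5% and 42.7% in blue and between 29.3% and 30.5% in red light, and the grey bar is the taller one in the blue and the shorter one in the red libraries.

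The peaks of the NAC genes formed 45 sites. Of these, 17 were called in all 6 libraries (37.8%, against 34.8% of all sites) and 7 in a single library (15.6%, against 13.9%). All 3 blue libraries called 34 of them, of which 4 were called in no red library (11.8%, against 20.5% of all such sites) and 13 in 1 or 2 red libraries. Of these 13, red replicates 1, 2 and 3 called 5, 7 and 8. The NAC sites in all 6 libraries were of ordinary height, with a median of 376 tags per 10 M in blue and 266 in red, where all 3557 sites had medians of 359 in blue and 252 in red.

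**Figure D2:**
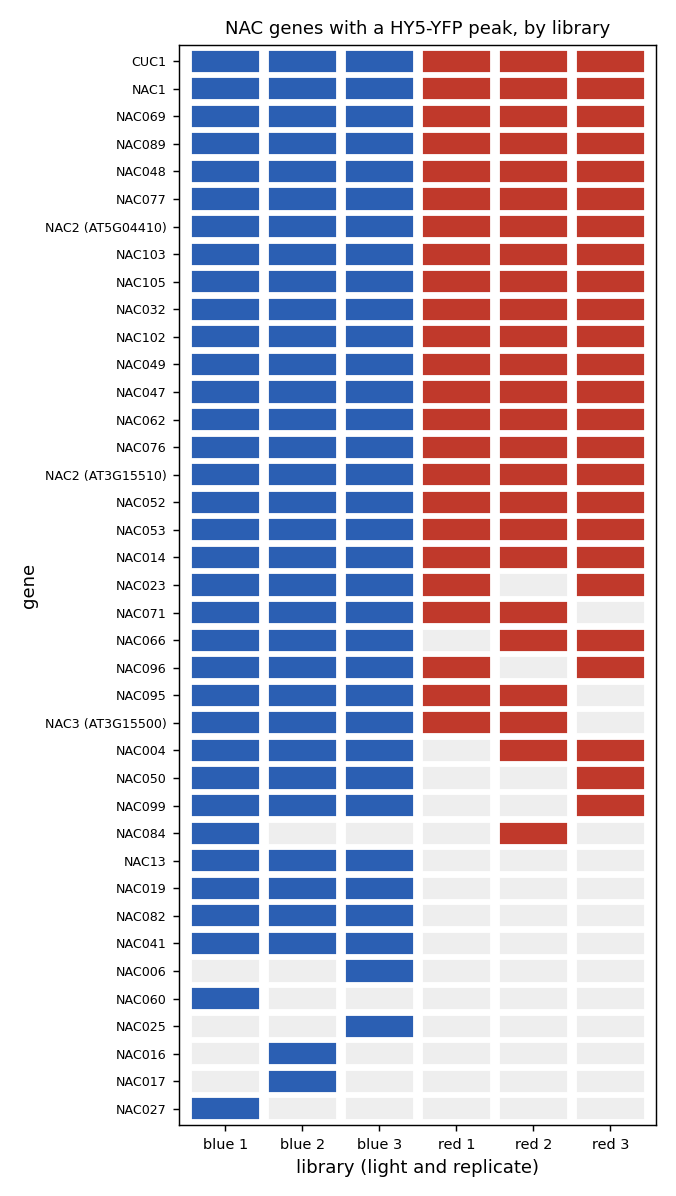
Each row is 1 of the 39 NAC genes with a peak and each column 1 library, and a filled cell marks a peak within the window of the gene. The upper 19 genes are filled in all 6 libraries, and the genes without a red peak are filled in blue libraries only.

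CUC1, which with CUC2 and CUC3 sets the boundaries between organs and helps to form the shoot meristem, had the tallest NAC site of all. It lies 496 bp outside the gene, at chromosome 3, 5109008 to 5109556 in the TAIR10 build. It held 1566, 1643 and 1562 tags per 10 M in blue replicates 1, 2 and 3, against 2427, 1525 and 1485 in red replicates 1, 2 and 3. Red replicate 1 was far above all other libraries, and the other two red libraries lay just below the blue ones, so the groups overlapped. The means were 1590 ± 45.7 tags in blue and 1812 ± 532 in red (SD, n = 3 each). The peak ranked 45, 34 and 42 by tags in the blue lists, against 14, 14 and 16 in the red ones. Beyond the opposite end of CUC1, 232 bp outside, a second site (5111665 to 5112016) held 482, 443 and 481 tags in blue replicates 1 to 3, against 334 in red replicate 2 and no peak in red replicates 1 and 3. The end of the neighbouring gene AT3G15180 is nearer to this second site than that of CUC1. Its fold over the surrounding 10000 bp, which hold the tall site, was 4.98, 4.64 and 5.24 in blue and 4.03 in red replicate 2, just over the 4-fold excess that the authors asked for. The part of the tall site in the missing red calls was not tested.

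CUC2 and CUC3 had no peak within the window in any library. The nearest site to CUC2 lay 1879 bp from the gene, outside the window, with a mean of 162 tags per 10 M in the 3 libraries that called it. Of the 6 genes whose transcripts are cut through the microRNA miR164, CUC1 and NAC1 had a consensus site in both lights. CUC2, NAC080, NAC100 and NAC6, which is also known as ORE1 and promotes leaf senescence, had no peak. Over all genes the shares were 49.5% for any peak, 43.2% for a blue and 26.3% for a red consensus site.

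NAC1, which acts in auxin signalling and lateral root formation, had the second tallest site by the mean over all 6 libraries, although that of NAC069 was taller in each red library. The NAC1 site lies 679 bp outside the gene at chromosome 1, 20949706 to 20950254. It held 908, 862 and 923 tags per 10 M in blue replicates 1, 2 and 3, against 735, 447 and 468 in red replicates 1, 2 and 3. Every blue library was above every red one. The means were 898 ± 31.8 in blue and 550.1 ± 161 in red (SD, n = 3 each), and in limma the site was higher in blue by 0.74 ± 0.21 (log2, SE, adjusted p = 0.00585).

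NAC proteins with a membrane anchor are kept out of the nucleus until they are cut free. All 10 such genes among those on a list of roles had a peak in at least 1 library, 7 reached a consensus under blue light and 6 of these under red light as well, where the shares over all genes were 49.5% for any peak, 43.2% for blue and 26.3% for red. The list was chosen with results known, and it may leave out other NAC genes with such an anchor. NAC016, NAC017 and NAC060 are counted through a peak in 1 library only. The tallest site of the group was that of NAC069, known as NTM2 and linked to salt stress and auxin in seeds. It lies 480 bp outside NAC069 at chromosome 4, 673088 to 673636, and also within the window of NTM1, another membrane-anchored NAC gene, so it cannot be given to one of them. It held 701, 736 and 666 tags per 10 M in blue replicates 1, 2 and 3, against 895, 576 and 640.2 in red replicates 1, 2 and 3. The red libraries lay on both sides of the blue ones, and the means were 701 ± 35.0 in blue and 704 ± 169 in red (SD, n = 3 each).

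NAC089, a membrane-anchored factor of sugar and endoplasmic reticulum stress responses, had a site 78 bp inside the gene at chromosome 5, 7377441 to 7377989. It held 544, 509 and 544 tags per 10 M in blue replicates 1, 2 and 3, against 391, 307 and 316 in red replicates 1, 2 and 3. Blue and red did not overlap, and limma gave a log2 difference of 0.66 ± 0.21 (SE, adjusted p = 0.0113). NAC2 (AT5G04410), also called ANAC078 and known for flavonoid synthesis under strong light, shared a site with NAC077 (chromosome 5, 1243346 to 1243894), 51 bp outside NAC2 and 274 bp outside NAC077. This site held 425, 451 and 433 tags in blue replicates 1 to 3, against 398, 279 and 226 in red replicates 1 to 3. All blue libraries were higher (log2 difference in limma 0.58 ± 0.21, SE, adjusted p = 0.0229).

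NAC053, known as NTL4 and tied to reactive oxygen in drought, shared the site at chromosome 3, 3271174 to 3271722 with NAC052, 226 bp inside NAC053 and 241 bp outside NAC052. It held 265, 234 and 267 tags per 10 M in blue replicates 1 to 3, against 238, 141 and 165 in red replicates 1 to 3. Red replicate 1 reached into the blue range, and limma still called the site higher in blue (0.52 ± 0.21, SE, adjusted p = 0.0358). NAC062 (NTL6), activated by cold, held 313, 299 and 268 tags in blue replicates 1 to 3, against 271, 194 and 229 in red replicates 1 to 3, at a site 112 bp outside. NAC014 held 221, 205 and 237 tags in blue replicates 1 to 3, against 226, 138 and 125 in red replicates 1 to 3, at a site 16 bp outside. At both, red replicate 1 fell within the blue range, and neither passed limma. The log2 difference was 0.35 ± 0.21 at NAC062 (SE, adjusted p = 0.123) and 0.48 ± 0.22 at NAC014 (SE, adjusted p = 0.0516).

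NAC13, which carries mitochondrial stress signals to the nucleus, had a site in all 3 blue and no red libraries, described further on. NAC016, NAC017 and NAC060 had only a weak call. NAC016 promotes chlorophyll breakdown, and NAC017 is a mitochondrial stress factor. The single peak near both, at 104 tags per 10 M, was called in blue replicate 2 alone. NAC060, which links sugar and abscisic acid, had a peak of 168 tags in blue replicate 1 alone, 9 bp from the gene end.

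**Figure D3:**
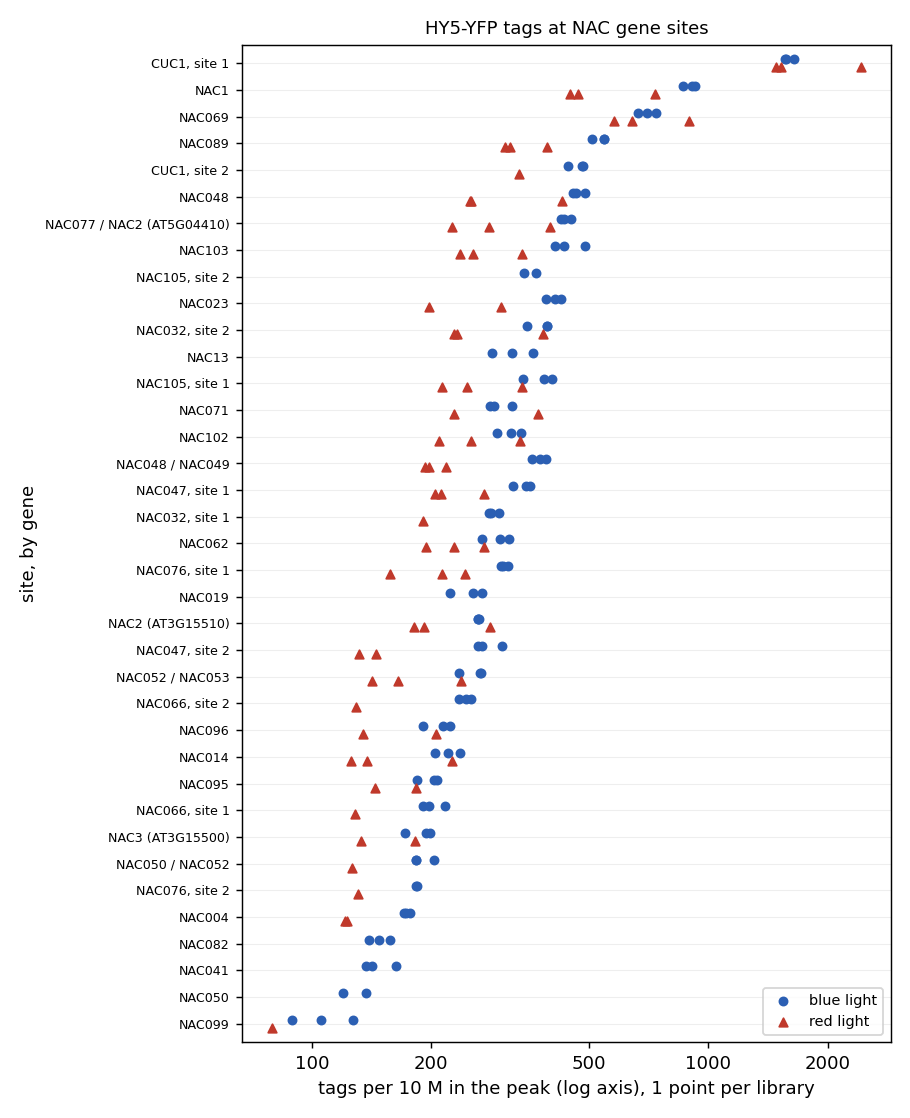
Points give the tags per 10 M of each NAC site with a consensus in at least 1 light, on a log axis, with blue circles for blue and red triangles for red libraries, and a missing point means no peak. Sites of a gene are numbered by position on the chromosome, and most red points lie left of the blue ones, while at the tall CUC1 site and those of NAC069, NAC071 and NAC2 (AT3G15510) they lie on both sides.

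Among 12 genes known from senescence, abscisic acid and stress responses, a peak of any library stood at 7, a consensus under blue light at 6 and under red light at 5, beside shares of 49.5%, 43.2% and 26.3% over all genes. These 12 genes, too, were listed with results known. The 5 called in both lights were NAC032, NAC102, NAC047, NAC2 (AT3G15510) and NAC3 (AT3G15500), and NAC019 was called in blue only. NAC6, NAC3 (AT3G29035), NAC042, NAC083 and NAC046 had no peak, among them the senescence factors ORE1 and ORS1 and the longevity factor JUB1 (NAC042).

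NAC032, a stress-induced relative of ATAF1, had a site 70 bp outside the gene at chromosome 1, 29099483 to 29100031. It held 391, 393 and 349 tags per 10 M in blue replicates 1, 2 and 3, against 383, 229 and 232 in red replicates 1, 2 and 3. Red replicate 1 lay within the blue range, and the site did not pass limma (0.46 ± 0.21, SE, adjusted p = 0.0512). A second site 911 bp out, nearer to the proteasome gene PBC2, held 296, 283 and 280.3 tags in blue and 191 in red replicate 3, the only red library to call it.

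NAC102, known from low oxygen responses of seeds, had a site 155 bp inside the gene at chromosome 5, 25527850 to 25528398. It held 336, 294 and 318 tags per 10 M in blue replicates 1, 2 and 3, against 336, 252 and 209.5 in red replicates 1, 2 and 3. Red replicate 1 was level with the highest blue library, and the log2 difference of 0.27 ± 0.21 did not pass limma (SE, adjusted p = 0.220). NAC047, which raises leaves under ethylene, had a site at each end. The one 88 bp outside, at chromosome 3, 1060935 to 1061483, held 322, 347 and 355 tags in blue replicates 1 to 3, against 272, 204 and 211 in red replicates 1 to 3. Here all blue libraries were higher, and limma gave 0.58 ± 0.21 (log2, SE, adjusted p = 0.0216). The other, 776 bp beyond the opposite end, held 268, 262 and 302 tags in blue, against 132 and 145 in red replicates 2 and 3 and no peak in red replicate 1.

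NAC2 (AT3G15510), known as NARS1 and active in the seed coat, held 264, 262 and 263 tags per 10 M in blue replicates 1 to 3, against 281, 192 and 181 in red replicates 1 to 3. The blue libraries were nearly level, and red replicate 1 was above them (log2 difference 0.30 ± 0.21, SE, adjusted p in limma 0.184). NAC3 (AT3G15500), known as ANAC055 and induced by abscisic acid and jasmonate, held 194, 172 and 199 tags in blue, against 182 and 133 in red replicates 1 and 2 and no peak in red replicate 3.

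Among the switches of vessel differentiation, NAC105 (VND3) and NAC076 (VND2) were called in all 6 libraries, and NAC007 (VND4) and NAC101 (VND6) had no peak. Of the factors that thicken secondary walls, NAC066 (NST2), active in anthers, had its consensus in blue only, and NAC012 (NST3) had no peak. These wall and vessel genes were gathered after their values were seen. On a list of 7 other genes of vascular development and developmental cell death, 0 had a peak, beside 49.5% of all genes. These were NAC045, NAC086, NAC020, NAC075, NAC073, NAC010 and NAC074. This list too was chosen with results known, and NAC073 (SND2) and NAC010 (SND3) are also named as secondary wall factors. Sites near NAC020 and NAC086 lay just outside the window, at 1564 and 1568 bp. At NAC105, a site 107 bp outside at chromosome 5, 26479367 to 26479915, whose nearest gene end is that of AT5G66290, held 384, 340.2 and 404 tags per 10 M in blue replicates 1 to 3, against 339 (red replicate 1), 213 (red replicate 2) and 246 (red replicate 3). The lowest blue library exceeded the highest red one by little, and limma gave 0.52 ± 0.21 (log2, SE, adjusted p = 0.0334). A second NAC105 site, 990 bp beyond the opposite end at 26482338 to 26482697, held 366 and 343 tags in blue replicates 1 and 2 and was called nowhere else. Its fold over the mock was 4.82 and 4.51 there, close to the 4-fold minimum.

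NAC076 had a site 75 bp outside at chromosome 4, 17113923 to 17114471, with 300.5, 303 and 312 tags per 10 M in blue replicates 1 to 3, against 243, 213 and 157 in red replicates 1 to 3. Blue and red did not overlap (limma 0.60 ± 0.21, log2, SE, adjusted p = 0.0199). Its second site, 1055 bp out on the same side, was called in blue replicates 1 and 3 at 183 and 184 tags and in red replicate 3 at 130.4. NAC066 had a site 418 bp inside with 217, 197 and 190.2 tags in blue and 129 in red replicate 3, and another 794 bp outside with 235, 244 and 252 in blue and 129 in red replicate 2. Each NAC066 site was thus called in a different single red library.

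Of the remaining genes, NAC103, which acts downstream of bZIP60 in endoplasmic reticulum stress, had a site 119 bp outside at chromosome 5, 25633086 to 25633634. It held 411, 488 and 433 tags per 10 M in blue replicates 1, 2 and 3, against 339, 255 and 236 in red replicates 1, 2 and 3. All blue libraries were higher (limma 0.69 ± 0.21, log2, SE, adjusted p = 0.00824).

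NAC048 and NAC049, which have consecutive locus numbers, shared the site with the widest difference between lights among the 17 NAC sites called in all 6 libraries. It lies at chromosome 3, 1175038 to 1175586, 212 bp outside NAC049 and 786 bp outside NAC048. It held 376, 389 and 358 tags per 10 M in blue replicates 1, 2 and 3, against 217, 193 and 198 in red replicates 1, 2 and 3. The lowest blue library lay far above the highest red one, and limma gave 0.88 ± 0.21 (log2, SE, adjusted p = 0.000831), and 96.3% of the 3557 sites had a smaller difference. NAC048 had a second site 1299 bp from its other end (1171094 to 1171642), with 489.6, 456 and 464 tags in blue replicates 1 to 3, against 427, 252 and 249.9 in red replicates 1 to 3. There too blue and red did not overlap (0.65 ± 0.21, log2, SE, adjusted p in limma 0.0128).

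NAC050 and NAC052, which work with the histone demethylase JMJ14, shared a site 345 bp inside NAC050 and 475 bp outside NAC052. It held 183, 203 and 183 tags per 10 M in blue replicates 1 to 3 and 126 in red replicate 3, the only red library to call it. A further NAC050 site, 912 bp from its other end, had 137 and 119.7 tags in blue replicates 1 and 2 and no red peak. NAC052 is counted in both lights through the site it shares with NAC053, and NAC050 in blue only.

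NAC023 had a site 1203 bp outside at chromosome 1, 22225394 to 22225942, with 410.0, 425 and 389 tags per 10 M in blue replicates 1 to 3, against 299.9 and 198 in red replicates 1 and 3 and no peak in red replicate 2. Its fold over the mock was 4.10 in each of these red libraries, close to the 4-fold minimum. NAC071, which helps cut stems to rejoin, held 319, 281 and 288 tags in blue, against 372 and 229 in red replicates 1 and 2, at a site 1365 bp out that is nearer to the malate channel gene ALMT12. NAC004 held 176, 173 and 170.2 in blue, against 122 and 121 in red replicates 2 and 3. Each of these sites was thus missed by 1 red library, not the same one.

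NAC096, which acts with the abscisic acid factor ABF2, held 214, 224 and 190.2 tags per 10 M in blue, against 206 and 135 in red replicates 1 and 3, and the end of AT5G46600 was nearer. NAC095 held 204, 207 and 184 in blue, against 183 and 144 in red replicates 1 and 2, nearer to AT5G41100. NAC099 had the lowest consensus site, nearer to AT5G56610, with 89.0, 127 and 105 in blue and 79.1 in red replicate 3. Red replicate 1 came within the blue range at NAC096 and just under it at NAC095, and at NAC099 the red value was below the blue ones. At a further 4 genes a peak was called without a consensus, namely NAC006 at 229 tags in blue replicate 3 next to the gene LIN2, NAC025 at 109 in blue replicate 3, NAC027 at 94.2 in blue replicate 1, and NAC084 at 164 in blue replicate 1 and 116 in red replicate 2, nearer to EXO70C2.

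At the 17 NAC sites called in all 6 libraries, 10 were higher in blue light and 0 in red by limma at an adjusted p under 0.05, against 51.9% and 0.0281% of all 3557 sites. The values are log2(tags per 10 M + 1), and p-values were adjusted by Benjamini and Hochberg over all 3557 sites. In this fit the SE and p reflect mostly a spread pooled over the sites, and hardly that of a single site. The share of blue calls among the NAC sites was near that of all sites, and at an unadjusted p under 0.05 likewise 0 NAC sites were higher in red, against 4 of all sites. Every blue library was above every red one at 9 of the 17 (59.4% of all sites) and every red one above every blue one at 0 (0.169%). The median log2 difference was 0.52 at the NAC sites and 0.48 at all sites. At each of the 17 sites red replicate 1, whose window was widest, was the highest red library.

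These calls rest on the set of libraries. Without red replicate 1, 18 of 19 testable NAC sites and 4543 of all 4633 testable sites (98.1%) were higher in blue. Without blue replicate 1, 2 or 3, only 1 of 17 NAC sites was, beside 4.19%, 4.18% and 3.93% of all sites. Without red replicate 2 it was 2 of 19 (5.99% of all sites), and without red replicate 3 it was 1 of 20 (5.78%). The NAC048 and NAC049 site passed in each of these 6 fits. At the tall CUC1 site the log2 difference was -0.15 ± 0.23 (SE, adjusted p = 0.526) with all libraries and 0.08 without red replicate 1. That of the NAC069 site was 0.02 ± 0.21 (SE, adjusted p = 0.934), and 0.20 without red replicate 1.

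Most of the tested sites shifted together, since the median log2 tags of a library were 0.53 higher in blue than in red, so differences were also taken relative to that shift by centring each library on its median over the 3557 sites. Relative to the median site, the tall CUC1 site leaned to red by -0.68 ± 0.06 (log2, SE, adjusted p = 5.19e-12) and the NAC069 site by -0.51 ± 0.07 (SE, adjusted p = 9.46e-08). By the uncentred difference, 0.478% of the 3557 sites stood below the tall CUC1 site and 1.29% below the NAC069 site. Both calls held in fits, added after the data had been seen, that left out any 1 library, with -0.71 to -0.61 at CUC1 and -0.56 to -0.46 at NAC069. With red replicate 1 included, the mean tags at both sites were not lower in red than in blue, whereas the median over all sites was lower in red.

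The NAC102 site also leaned to red relative to the median, by -0.25 ± 0.09 (log2, SE, adjusted p in limma 0.0415), but lost the call when any library other than red replicate 3 was left out. Thus 3 of 17 NAC sites leaned to red after centring, against 11.8% of all sites. Toward blue leaned 2 of 17, against 7.96% of all sites. These were the NAC048 and NAC049 site (0.35 ± 0.10, SE, adjusted p = 0.00712), which lost the call without blue replicate 2, and the NAC1 site (0.22 ± 0.06, SE, adjusted p = 0.0145), which lost it without blue replicate 1, blue replicate 3 or red replicate 2. The remaining 12 sites did not pass after centring.

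**Figure D4:**
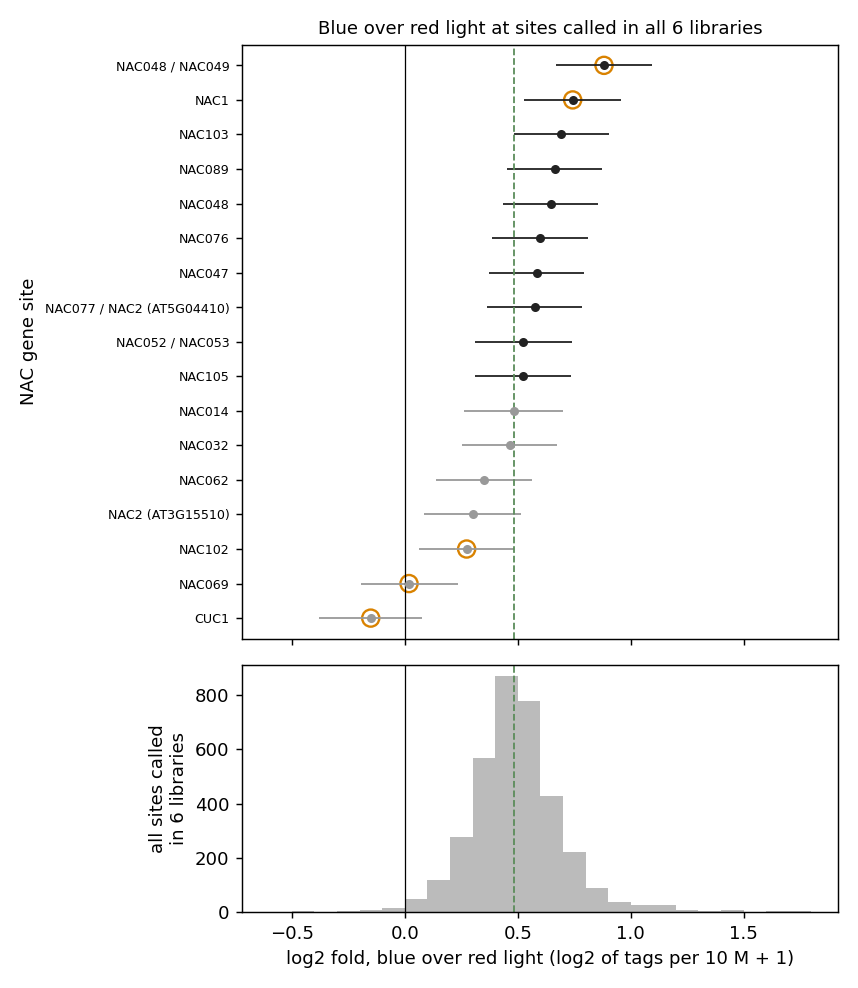
The upper panel gives the log2 difference, blue over red light, with its standard error at the 17 NAC sites called in all 6 libraries (black where limma passed, grey where it did not, ringed where it passed after centring), and the lower panel the number of all 3557 sites by log2 difference. The dashed line is the median of all sites, 0.48, and the tall CUC1 site at -0.15 and the NAC069 site at 0.02 lie far to its left.

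The sites with all 3 blue and no red calls belonged to NAC13, NAC019, NAC041 and NAC082. The NAC13 site, 52 bp outside at chromosome 1, 11911402 to 11911756, held 320.1, 362 and 285 tags per 10 M in blue replicates 1, 2 and 3. It was the tallest of these 4, and its lowest library stood above every library of the other three. NAC019, which with NAC3 (AT3G15500) answers abscisic acid and jasmonate, held 254, 224 and 269 tags at a site 953 bp out (chromosome 1, 19699250 to 19699620), and a peak of 117 tags 68 bp out was called in blue replicate 2 alone. The NAC041 site, 515 bp out at chromosome 2, 14180272 to 14180659, held 142, 137 and 163 tags in blue replicates 1, 2 and 3. NAC082, a mediator of nucleolar stress, held 139.5, 147 and 158 tags at a site 382 bp inside (chromosome 5, 2892544 to 2892895).

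A site without a red peak has no red value, so no difference can be given for these genes. A peak had to exceed the mock 4-fold, which at the NAC13 site took 239.8 tags per 10 M. This bar and those below come from the mock tags in the blue windows. The windows of red replicate 1 were wider, so its bars may be higher. The blue libraries passed this by little, at 5.34, 5.89 and 4.76 times the mock in replicates 1 to 3. At NAC019 the bar stood at 169.6 tags and the blue folds at 6.0, 5.27 and 6.34, and at NAC041 it stood at 111 tags and the folds at 5.46, 4.91 and 5.86. The bar at NAC082 was low, 52.6 tags, and the blue folds over the mock were 10.7, 12.6 and 10.8, while the folds over the surroundings were 4.53, 4.92 and 5.68. The median NAC site called in all 6 libraries, by comparison, stood 11.3 to 12.2 times over the mock in blue and 6.71 to 8.10 times in red libraries. The part of these bars in the missing red calls was not tested.

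By the window, every site lay within 1500 bp of a gene end. Over the 50 pairs of a site and a NAC gene, 43 were outside at a median of 475 bp from the gene end, with a range of 9 to 1365 bp, and 7 inside at a median of 226 bp, with a range of 44 to 418 bp. Some of the sites outside a NAC gene lay inside another gene, as those near NAC006 (in LIN2), NAC027 (in AT1G64100), NAC071 (in ALMT12), NAC076 (both in AT4G36170), NAC096 (in AT5G46600) and the consensus site near NAC099 (in AT5G56610). Of the 39 genes with a peak, 28 had 1 site and 11 had 2. The annotation used carries no strand, so start and end of a gene were not told apart. A pair of NAC genes shared the site at 5 places, where 9 NAC genes lie side by side (NAC016 and NAC017, NAC048 and NAC049, NAC050 with NAC052, NAC052 with NAC053, and NAC077 with NAC2, AT5G04410). Of the 45 sites, 36 were nearer to the end of a NAC gene than to that of any other protein-coding gene, and 9 were nearer to a neighbour, as given above for CUC1, NAC006, NAC032, NAC071, NAC084, NAC095, NAC096, NAC099 and NAC105.

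**Figure D5:**
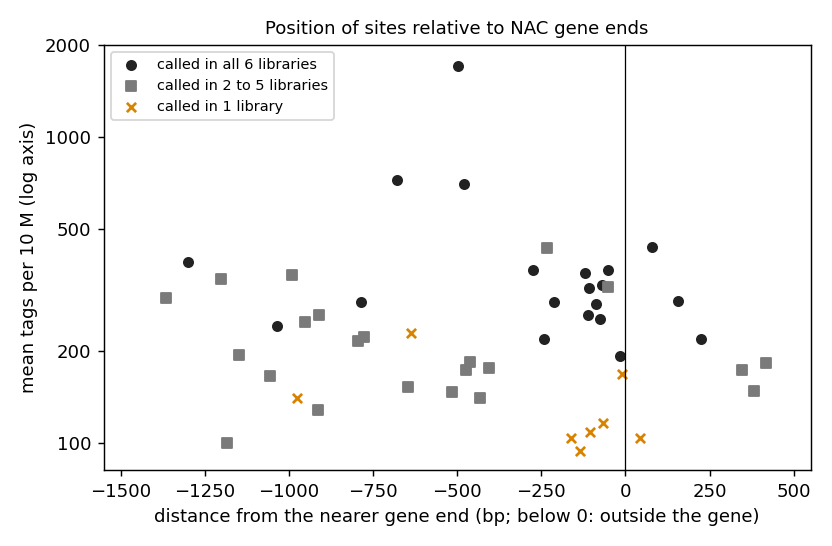
Each point is a pair of a site and a NAC gene, plotted by the distance of the site centre from the nearer gene end (bp, below 0 outside the gene) and by its mean tags per 10 M over the libraries that called it (log axis). The sites called in all 6 libraries (black) include the tallest, that of CUC1 at 496 bp outside, and the median distance is 475 bp outside and 226 bp inside the genes.

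At the edge of the window, the last sites inside were those of NAC048 at 1299 bp and of NAC071 at 1365 bp, with means of 389.8 and 298 tags per 10 M. The first ones outside were those of NAC020 at 1564 bp (164 tags, 1 library), NAC086 at 1568 bp (104 tags, 3 libraries) and NAC028 at 1610.5 bp (96.5 tags, 2 libraries).

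Further family members carry other symbols and were not counted above. Of 17 such genes, chosen with results known, HY5-YFP reached a consensus at 15 under blue light and at 11 under red light, beside 43.2% and 26.3% of all genes. Called in both lights were ATAF1, ATAF2, RD26, NAP, TIP, SOG1, NTM1, NTL8, VND1, ANAC026 and VND7, which include stress, senescence and vessel factors, and NTM1 through the site it shares with NAC069. NTL9, LOV1, XND1 and NST1 had a blue consensus site only. SMB and FEZ, which act in the root cap, had no peak.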

How the data were processed

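HY5-YFP ChIP-seq was used from 3 blue light and 3 red light libraries, grouped by the labels, each with a deposited peak list. HOMER findPeaks was run by the authors on every library separately, with the mock as control, and required, per the file headers, 4 times the tags of the mock and of the surrounding 10000 bp, a Poisson p of at most 0.0001 and a false discovery rate of 0.001. Per the submitters' processing notes, the HOMER version was 4.9 and the genome build TAIR10. An aligner name was not given in the sources used here. Deposited as signal are tags of a peak scaled to 10 M tags, and unscaled tags of the mock, per the file headers. Folds against mock and surroundings are ratios deposited by the authors. The lists' other columns were not used.

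Peaks were joined into sites where they shared 1 bp, in python 3.11.15 with pandas 2.3.3. Gene ends and symbols came from RefSeq (assembly TAIR10.1), matched by locus. Distances take its gene ends as they stand beside the TAIR10 peak positions, and as it was used without strand or exons, sites are given only as outside or inside a gene. The 3557 sites with a peak in every one of the 6 libraries were compared as log2(tags per 10 M + 1) by limma 3.58.1 in R 4.3.3, using lmFit and eBayes with trend. P-values were adjusted by Benjamini-Hochberg over these sites, with 0.05 as threshold, and the fits were tested on simulated data. The simulation held no general shift between lights and no library set apart as red replicate 1 was. It therefore does not bear on those features of the real data. A site without a peak has no value. There were 3 libraries per light, of 7.99 to 11.9 M tags each. The limma p-values set the difference between lights against the spread between these libraries. For each site, eBayes draws that spread toward a trend over all tested sites. In the uncentred fit this pull was strong, so SE and p reflect mostly the pooled spread and hardly that of the single site. The SE was 0.211 at the NAC048 and NAC049 site, where the red mean was 203 ± 12.8 tags (SD). It was 0.229 at the tall CUC1 site, where the red mean was 1812 ± 532 (SD). Alternatives were other windows, peak thresholds, consensus rules, list lengths, joining distances, pseudocounts, filters, a replicate block, centring, and leaving out each library. A planned edgeR test on tags recovered from the scaled values was not run, and a planned motif search was not run without promoter sequences.

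The genes, role lists and tests were chosen with earlier results of these data known. Every NAC gene with a consensus site is named. Tags per library are given for the 12 tallest NAC sites, all sites that passed limma with or without centring, genes called in all 3 blue and no red libraries, and CUC1, CUC2 and CUC3.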

Additional observations from a re-analysis of the deposited data

How the results depend on the processing

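The count of NAC genes with a blue and no red consensus site was 7 as reported (8.54%, against 17.1% of all genes). It was 12 with a window of 3000 bp (14.6%, against 20.9%) and 4 with one of 500 bp (4.88%, against 12.7%). When a peak needed 8 times the mock it was 12 (14.6%, against 13.2%), and with equally long lists 3 (3.66%, against 2.71%). It was 13 when all 3 libraries of a light had to call (15.9%, against 18.7%). When a library was left out it ran from 7 to 12 (8.54% to 14.6%, against 13.6% to 23.3%). At that 8-fold minimum, 19 NAC genes showed a consensus site under blue light (23.2%, against 22.9% of all genes) and 7 under red light (8.54%, against 9.82%). Under the other alternatives run, these 2 counts stayed within 1.5 times the reported 32 and 25. The NAC share in blue was not always the lower one. It was 31.7%, against 26.2% of all genes, by the nearest gene end, and 39.0%, against 37.9%, when all 3 libraries had to call. With a window of 3000 bp the NAC share in red was the lower one (36.6%, against 37.5%). In equally long lists the blue and red counts came to 23 and 24, in the opposite order, and the gap between the mean numbers per library fell to 1 gene, against 9.67 as reported. The limma count of NAC sites higher in blue ran from 1 to 18 when a library was left out, and that of all sites from 140 to 4543 in blue and 0 to 6 in red. Centring changed the NAC counts to 2 in blue and 3 in red and those of all sites to 283 and 421. Centred and with a library left out, they ran from 1 to 3 in blue and 2 to 4 in red, and over all sites from 192 to 390 and 241 to 495. With sites of at least 200 tags, 2 of all sites were higher in red. Centring turned the log2 difference to red at NAC014 (-0.045), NAC032 (-0.062), NAC052 with NAC053 (-0.0028), NAC2 AT3G15510 (-0.23), NAC062 (-0.18), NAC069 (-0.51), NAC102 (-0.25) and NAC105 (-0.0038), by its construction, as it subtracts the shift of the medians. When a library was left out, the difference ran from -0.28 to 0.079 at CUC1 and -0.11 to 0.20 at NAC069. Centred, it ran from -0.11 to 0.051 at NAC014, -0.10 to 0.018 at NAC032, -0.073 to 0.047 at NAC052 with NAC053, -0.013 to 0.20 at NAC076, -0.046 to 0.11 at NAC077 with NAC2 AT5G04410 and -0.057 to 0.054 at NAC105. Same-numbered blue and red libraries had correlations of -0.04, -0.09 and 0.05 in their deviations from the group means, and the other pairs -0.09 to 0.12. No pairing by replicate number was seen, though 3 libraries per light are too few to exclude one. With the replicate block, limma called 10 NAC sites toward blue and 0 toward red, 1399 and 0 of all sites, and after centring 2 and 3 NAC sites and 290 and 426 of all sites. The planned edgeR alternatives were not run.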
